A study of Mus musculus with 6 samples.

Results

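The 9 genes described here, *Mrc1*, *Stab1*, *Cd163*, *Lyve1*, *Ms4a7*, *Clec1b*, *F13a1*, *Pf4* and *Cbr2*, are used as markers of border macrophages. They were found among the 18254 genes measured in the mouse medial prefrontal cortex (mPFC) by their Ensembl identifiers, and all 9 were present. The comparison was between male *Shank3* transgenic mice, which carry an EGFP-Shank3 transgene (*Shank3* TG), and their wild-type (WT) littermates, on a C57BL/6J background and 10 to 12 weeks of age. The labels give no treatment. There were 3 RNA samples of each genotype, numbered 1 to 3, each from 2 mice pooled, so that n = 3 pools per genotype throughout. Whether the meninges were removed before the tissue was cut is not given in the sources used here.

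Border macrophages, also called CNS-associated macrophages, live in the meninges, around blood vessels and in the choroid plexus, while microglia are the macrophages of the brain tissue itself. They take up proteins, lipids and haemoglobin from the fluid around vessels, and they differ from microglia in their scavenger and lectin receptors. Both kinds share much of the myeloid programme, so that only some of their genes tell them apart. Several of the 9 genes also have other known sources. *Lyve1* and *Stab1* are found in lymphatic or sinusoidal endothelium, *Pf4* and *Clec1b* in platelets and megakaryocytes, and *Mrc1* and *Cd163* in macrophages of most tissues.

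The values are normalized read counts, that is, read counts that the authors scaled for library depth, and they summed to between 28363967 and 29447717 in a library. *Shank3* itself lay at 17470, 19003 and 16310 in TG-1, TG-2 and TG-3 and at 8374, 8173 and 6791 in WT-1, WT-2 and WT-3, so that the 3 *Shank3* TG libraries lay well above the 3 WT libraries as labelled. The cortical neuron genes *Slc17a7* and *Snap25* lay between 39217 and 45669 and between 83906 and 93636 normalized counts. What drives the transgene, and in which cells, is not given in the sources used here. Differences between the genotypes were tested with limma on log2(normalized count + 1), which understates the change of low genes, over the 16714 genes that averaged 5 normalized counts or more. No gene passed an adjusted p of 0.05 in this test (0% of the genes tested), and 2.01% had an unadjusted p under 0.05. With the replicate number as a block in the model, 1 gene passed, *Shank3* (0.00598%). Every adjusted p of the 9 genes without the block was 0.9999, so what follows describes sizes, intervals and unadjusted p-values. In bulk tissue, more cells of a type and more RNA per cell cannot be told apart.

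The 9 genes differed in abundance by more than an order of magnitude. Per kilobase of the longest coding transcript, *Stab1* was the highest, with a mean of 86.6 normalized counts per kilobase over the 6 libraries (67.3 to 111), followed by *Mrc1* at 34.6 (25.8 to 42.8). *Cbr2* (24.1), *Pf4* (22.4), *Ms4a7* (22.1), *F13a1* (19.9) and *Cd163* (16.0) came next, and the ranges of these neighbours over the libraries overlapped. *Lyve1* lay at 10.8 (6.35 to 14.8) and *Clec1b* was the lowest at 4.70 (0.306 to 10.96) normalized counts per kilobase. The place of *Ms4a7* depends on the length used, since over the union of its exons, which include a long retained-intron transcript, it fell from rank 5 to rank 8, and on the genotype, since its means in *Shank3* TG and WT lay far apart.

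The uptake receptors are *Mrc1*, *Stab1*, *Cd163* and *Lyve1*. Each had a higher mean in *Shank3* TG mPFC, by 0.26 to 0.39 on the log2 scale, and in each the 2 genotypes overlapped. *Mrc1* (ENSMUSG00000026712, chromosome 2 from 14229392 to 14332057 on GRCm38, plus strand) encodes the mannose receptor CD206, a C-type lectin that binds and takes up glycoproteins. It was 207, 230.0 and 171 normalized counts in TG-1, TG-2 and TG-3 and 184, 187 and 139 in WT-1, WT-2 and WT-3. The libraries numbered 3 were the lowest of each genotype, and the *Shank3* TG library was above the WT library of the same number each time, by 1.13, 1.23 and 1.23 times. The means were 203 ± 29.9 and 170 ± 27.0 (SD, n = 3), and the log2 difference was 0.26 (SE 0.17, 95% interval -0.14 to 0.65), with an unadjusted limma p of 0.172. With the block this p was 0.0495. With 1 library left out the *Mrc1* difference lay between 0.12 (without WT-3) and 0.37 (without TG-3), and it was 0.16 without TG-2.

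*Stab1* (ENSMUSG00000042286, chromosome 14 from 31139013 to 31168641, minus strand) encodes stabilin-1, a scavenger receptor that clears modified lipoproteins and matrix fragments. It was 731 normalized counts in TG-1, 885 in TG-2 and 675 in TG-3, against 752, 578 and 538 in WT-1, WT-2 and WT-3. WT-1 was above TG-1 and TG-3, so that *Stab1* was lower in the *Shank3* TG library at number 1 and higher at numbers 2 and 3. The log2 difference was 0.30 (SE 0.15, 95% interval -0.06 to 0.66), with an unadjusted limma p of 0.0892 without and 0.032 with the block. It lay between 0.19 (without TG-2) and 0.44 (without WT-1) with 1 library left out.

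*Cd163* (ENSMUSG00000008845, chromosome 6 from 124304656 to 124330527, plus strand) encodes the receptor for haptoglobin-bound haemoglobin. Its values were 101, 79.4 and 57.0 normalized counts in TG-1, TG-2 and TG-3 and 55.8, 78.3 and 54.4 in the WT libraries of the same order. TG-1 alone stood above the others. At numbers 2 and 3 the genotypes differed by 1.01 and 1.05 times, against 1.80 times at number 1, and without TG-1 the log2 difference of 0.31 (SE 0.25, 95% interval -0.28 to 0.90) became 0.12, and without TG-3 it was 0.52. *Lyve1* (ENSMUSG00000030787, chromosome 7 from 110850607 to 110863239, minus strand), a receptor for the matrix sugar hyaluronan, was 28.5, 42.7 and 35.2 normalized counts in TG-1 to TG-3 and 18.4, 28.9 and 34.7 in WT-1 to WT-3. The *Shank3* TG library was the higher at each number, by a small margin at number 3, with a log2 difference of 0.39 (SE 0.30, 95% interval -0.31 to 1.09). Without WT-1, its lowest library, this was 0.14, and without TG-2, its highest, 0.25, while without WT-3 it was 0.58 and without TG-1 0.53. The unadjusted limma p-values were 0.261 for *Cd163* and 0.232 for *Lyve1*.

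**Figure D1:**
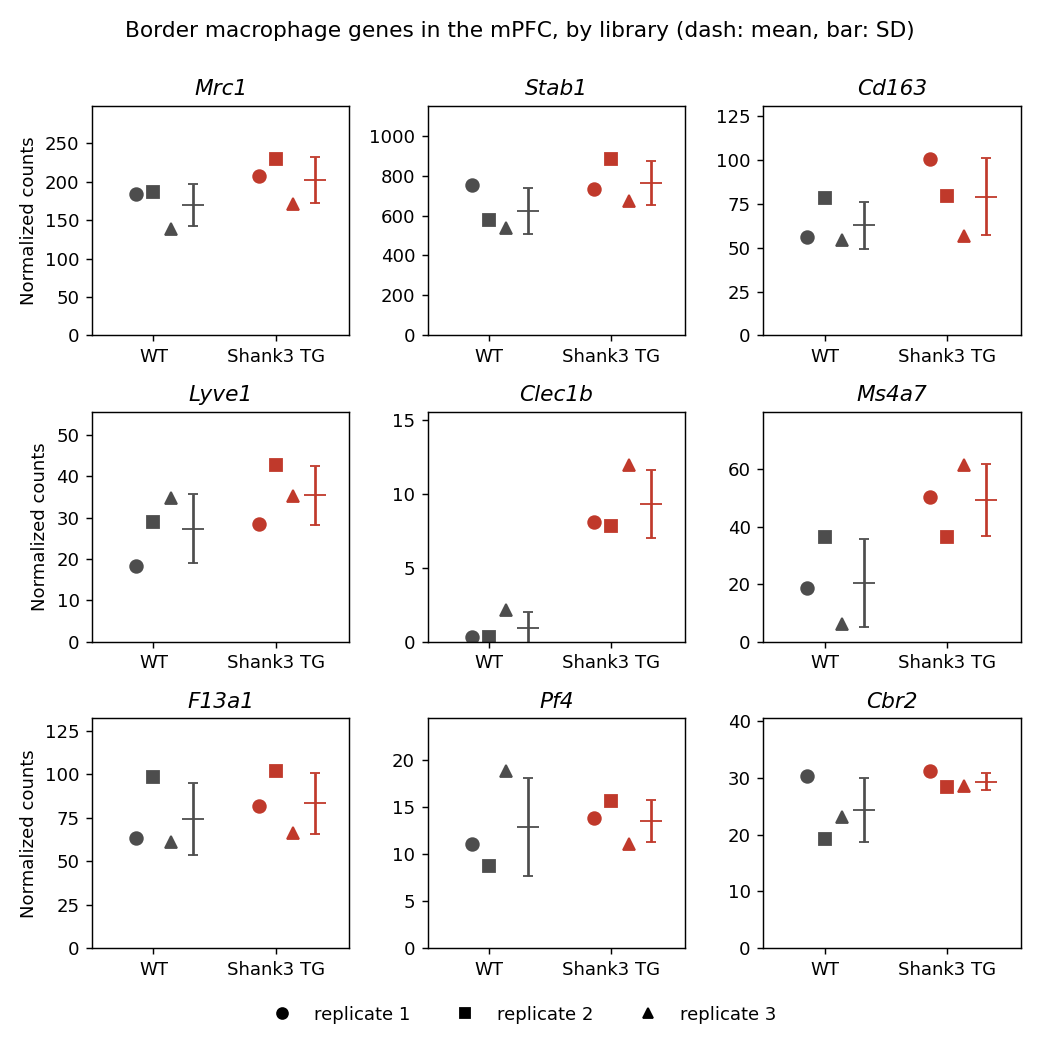
Normalized read counts (y axis, linear, a scale of its own for each gene) of the 9 border macrophage genes in the *Shank3* TG and WT libraries; each point is a library marked by its number, and the bars give the mean and SD of 3 libraries, the lower bar of *Clec1b* in WT ending at 0. The genotypes do not overlap in *Clec1b*, where all 3 WT libraries are under 3 normalized counts, and in *Ms4a7*, where TG-2 and WT-2 nearly coincide.

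The membrane proteins *Ms4a7* and *Clec1b* had the largest differences of the 9 genes, and they were the members whose genotypes did not overlap, 2 of 9, both higher in *Shank3* TG, against 2.91% of all genes tested. Both were also the members with an unadjusted p under 0.05 (2 of 9, against 0.933% of all genes tested for higher values in *Shank3* TG). *Clec1b* passed the filter on low values only through its *Shank3* TG libraries, so that it had to differ, and these counts of 2 are a description of the members. Both are among the genes that the study lists as changed in these same samples, so that their values are not independent evidence of that change. *Ms4a7* (ENSMUSG00000024672, chromosome 19 from 11321039 to 11336146, minus strand) encodes a membrane-spanning protein of the MS4A family that border macrophages express and resting microglia lack. It was 50.3 normalized counts in TG-1, 36.41 in TG-2 and 61.4 in TG-3, against 18.7, 36.38 and 6.02 in WT-1, WT-2 and WT-3. The separation of the genotypes rests on TG-2 and WT-2, which differed by 0.0245 normalized counts, and after quantile normalization they overlapped. *Ms4a7* thus ranged from 1.00 times at number 2 to 2.69 times at number 1 and 10.2 times at number 3. The means were 49.4 ± 12.5 and 20.4 ± 15.3 (SD, n = 3), and the log2 difference was 1.51 (SE 0.57, 95% interval 0.19 to 2.83), with an unadjusted limma p of 0.0296. Without WT-3 the log2 difference was 0.86 and without both libraries numbered 3 it was 0.69, with an unadjusted limma p of 0.0444 and 0.0973. The unadjusted limma p was also above 0.05 without TG-1 (0.0687), without TG-3 (0.0765), without WT-1 (0.055) and with eBayes without a trend (0.0511). Without WT-2 the log2 difference was larger, at 2.07, and without TG-2 it was 1.71, with an unadjusted limma p of 0.00456 and 0.0382.

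*Clec1b* (ENSMUSG00000030159, chromosome 6 from 129397297 to 129409335, plus strand) encodes CLEC-2, a C-type lectin receptor that binds podoplanin. It was 8.07, 7.85 and 11.9 normalized counts in TG-1 to TG-3 and 0.349, 0.334 and 2.17 in WT-1 to WT-3. All WT libraries lay under the floor of 3 normalized counts taken here, and set against that floor the *Shank3* TG mean of 9.29 ± 2.30 (SD, n = 3) was at least 3.10-fold higher. The fitted log2 difference was 2.50 (SE 0.61, 95% interval 1.10 to 3.91), with an unadjusted limma p of 0.00351, and it moved from 1.27 to 3.595 between pseudocounts of 5 and 0.1. *Clec1b* entered the test through the *Shank3* TG libraries, since its mean over all 6 was 5.12, and without any 1 *Shank3* TG library it fell under the filter. When the z-scores of all genes were divided by their width (0.731), *Clec1b* was the member with an adjusted p under 0.05 (limma, adjusted p = 0.0479), one of 26 such genes (0.156% of those tested).

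The *Clec1b* values of WT-1 and WT-2 stand below what a single read was usually worth. In WT-1 and WT-2 the values of all genes between 0.7 and 1.4 normalized counts had a median of 0.942 and 0.968, and 7 and 2 genes of the table had a value above 0 but under 0.4. The authors' import of transcript abundances allows a different transcript length for each gene and library. *Clec1b* has 4 annotated transcripts of 455 to 4347 bases, the longest with a retained intron. The part of that length in the values was not tested. The 3′ end of *Clec1b* also overlaps the start of *Clec9a*, a dendritic cell gene on the same strand, looked at because of this overlap and after the values had been seen. *Clec9a* was 3.37, 7.60 and 5.52 normalized counts in TG-1 to TG-3 and 2.75, 12.4 and 10.4 in WT-1 to WT-3, a log2 difference of -0.41, opposite in sign to that of *Clec1b*. Reads from the stretch that both genes share could be counted for either.

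The start regions of *Ms4a7*, *Clec1b* and *Mrc1* are shown because the first 2 genes differed most between the genotypes and the other is the most used marker of these cells. The windows are RefSeq sequences of GRCm38.p6 from 250 bases before to 50 bases after the gene start, written 5′ to 3′ on the strand of the gene. *Ms4a7* has 2 such windows, of which that of the upstream start is shown. Capitals mark the letters GAGGAA or, on the opposite strand, TTCCTC, a core that the myeloid factor PU.1 binds. *Ms4a7* lies at chr19:11336097-11336396 on the minus strand, *Clec1b* at chr6:129397047-129397346 and *Mrc1* at chr2:14229164-14229463, both on the plus strand.
Ms4a7: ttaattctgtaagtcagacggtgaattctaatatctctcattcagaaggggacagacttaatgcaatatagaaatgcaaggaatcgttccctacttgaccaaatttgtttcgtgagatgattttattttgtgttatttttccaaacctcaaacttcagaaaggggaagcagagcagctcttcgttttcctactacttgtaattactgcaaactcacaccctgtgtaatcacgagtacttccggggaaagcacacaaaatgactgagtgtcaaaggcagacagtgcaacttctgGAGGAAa
Clec1b: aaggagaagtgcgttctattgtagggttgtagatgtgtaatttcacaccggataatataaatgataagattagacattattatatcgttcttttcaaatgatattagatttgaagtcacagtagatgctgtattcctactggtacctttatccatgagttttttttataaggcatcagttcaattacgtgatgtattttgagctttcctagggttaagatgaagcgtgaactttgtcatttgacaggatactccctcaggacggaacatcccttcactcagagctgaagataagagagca
Mrc1: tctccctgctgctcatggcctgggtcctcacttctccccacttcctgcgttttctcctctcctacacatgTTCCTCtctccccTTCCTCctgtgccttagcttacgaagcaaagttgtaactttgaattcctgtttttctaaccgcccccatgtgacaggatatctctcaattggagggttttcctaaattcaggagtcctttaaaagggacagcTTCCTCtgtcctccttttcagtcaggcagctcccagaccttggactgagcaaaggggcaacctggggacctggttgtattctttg
The core was found 3 times in the window of *Mrc1* and 1 time in the one shown of *Ms4a7*, and these letters were neither in the second window of *Ms4a7* nor in that of *Clec1b*. Windows were matched for 8 of the 9 genes, not for *Lyve1*. A total of 7 of their 10 windows, from 6 genes, held the core, against 28.3% of the 32851 windows of all genes. A match of these letters is a description and does not show that the factor is bound.

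Of the secreted proteins and the enzyme *Cbr2*, none had an unadjusted p under 0.05, and *Pf4* and *F13a1* differed the least of the 9 genes. *F13a1* (ENSMUSG00000039109, chromosome 13 from 36867178 to 37050244, minus strand) encodes the A subunit of coagulation factor XIII, which cross-links fibrin. It was 81.8, 102 and 66.5 normalized counts in TG-1 to TG-3 and 63.1, 98.2 and 61.3 in WT-1 to WT-3, higher in *Shank3* TG at each number but by less than the libraries of a genotype differ. The log2 difference was 0.18 (95% interval -0.39 to 0.75), and with 1 library left out it lay between 0.03 (without TG-2) and 0.39 (without WT-2). *Pf4* (ENSMUSG00000029373, chromosome 5 from 90772435 to 90773383, plus strand) encodes the chemokine CXCL4. It was 13.8, 15.6 and 11.1 normalized counts in TG-1 to TG-3 and 11.1, 8.73 and 18.8 in WT-1 to WT-3. WT-3 held the highest *Pf4* value and WT-2 the lowest. The log2 difference was 0.12 (95% interval -0.75 to 0.99) and had the opposite sign, -0.10, without WT-2, while without WT-3 it was 0.41.

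*Cbr2* (ENSMUSG00000025150, chromosome 11 from 120729489 to 120732114, minus strand) encodes a carbonyl reductase. It was 31.1, 28.3 and 28.5 normalized counts in TG-1 to TG-3, which lay close together, and 30.4, 19.3 and 23.0 in the WT libraries. WT-1 was within the *Shank3* TG range, and the other WT libraries were below it. The log2 difference was 0.29 (95% interval -0.30 to 0.88), and it was 0.14 without WT-2 and 0.46 without WT-1. The unadjusted limma p-values were 0.49 for *F13a1*, 0.761 for *Pf4* and 0.293 for *Cbr2*. The intervals of these genes hold both no difference and one of more than 0.7 on the log2 scale, so that neither can be told from 3 pools per genotype.

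**Figure D2:**
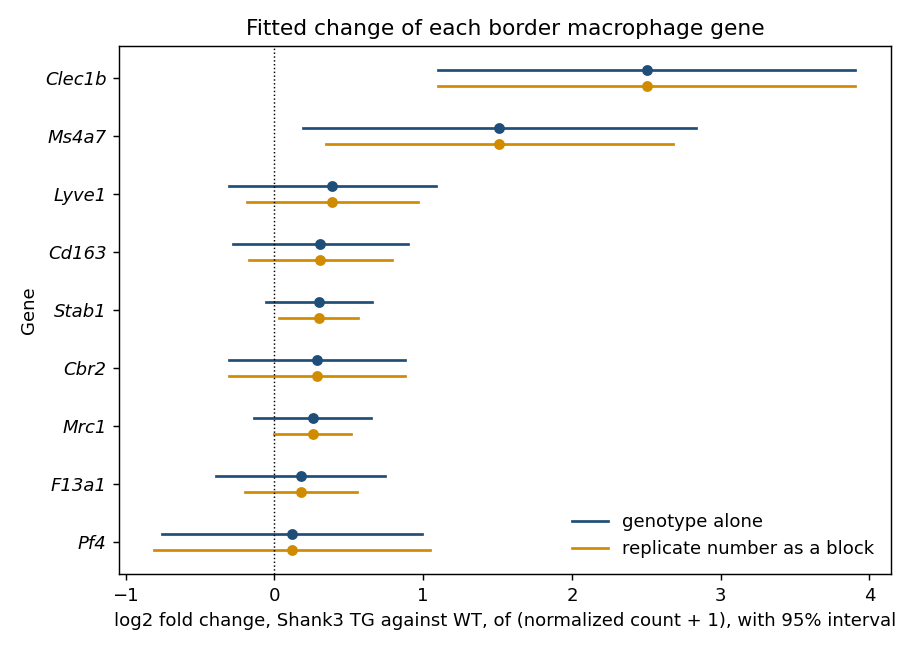
Log2 difference of *Shank3* TG from WT (x axis) of the 9 genes with the 95% interval of the fit, for the model of genotype alone and for that with the replicate block. All 9 estimates are above 0, and without the block the intervals of *Ms4a7* and *Clec1b* are the ones that leave out 0.

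As a group, the 9 genes had a log2 difference above 0 each (9 of 9, against 48.6% of the genes tested), with a median of 0.30 against -0.00 over all genes tested. *Shank3* TG was above WT at each of the 3 numbers in 7 of the 9 genes, against 11.6% of all genes tested. The exceptions among the 9 were *Stab1*, lower at number 1, and *Pf4*, lower at number 3. The count depends on the scaling, since after quantile normalization *Cd163* and *Ms4a7* were also higher at 2 numbers only, which leaves 5 of 9. Of the 27 combinations of gene and number, 25 were higher in *Shank3* TG on the deposited scale, and 18 were higher by more than 10%. With the replicate number as a block, 4 of the 9 genes had an unadjusted limma p under 0.05, namely *Clec1b* (0.00323), *Ms4a7* (0.0172), *Stab1* and *Mrc1*, against 2.33% of all genes tested for higher values. *Clec1b* is in this count, and in the others of the group, only through its *Shank3* TG libraries, so that they too describe the members. Their adjusted p-values with the block (limma) were 0.539 for *Clec1b* and 0.851 for *Ms4a7*. The genes share libraries and tissue and are not replicates of the genotype. They were also chosen with earlier results of these data known, so that the counts above describe the members and do not test them.

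The sum of the 9 genes was 1252, 1427 and 1117 normalized counts in TG-1 to TG-3 and 1134, 1035 and 877 in WT-1 to WT-3, a ratio of the means of 1.25. *Stab1* makes up most of this sum, and TG-3 was below WT-1. Without *Stab1* the sums were 521, 542 and 442 against 382, 457 and 339, a ratio of 1.28, and TG-3 was below WT-2. Without *Stab1* and *Mrc1* they were 314, 312 and 272 against 198, 270.2 and 200.4, a ratio of 1.34, and the genotypes did not overlap, by a small margin between TG-3 and WT-2. When each gene was centred on its own mean log2 value, the mean over the genes was 0.34, 0.39 and 0.25 in TG-1, TG-2 and TG-3 and -0.37, -0.22 and -0.38 in WT-1, WT-2 and WT-3. *Clec1b* and *Ms4a7*, which differ most, weigh most in this mean. Over the other 7 genes it was 0.16, 0.30 and -0.07 in TG-1 to TG-3 and -0.16, -0.10 and -0.13 in WT-1 to WT-3, a small margin between TG-3 and WT-2. TG-2 held the highest value of 4 of the 9 genes and WT-3 the lowest of 5.

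**Figure D3:**
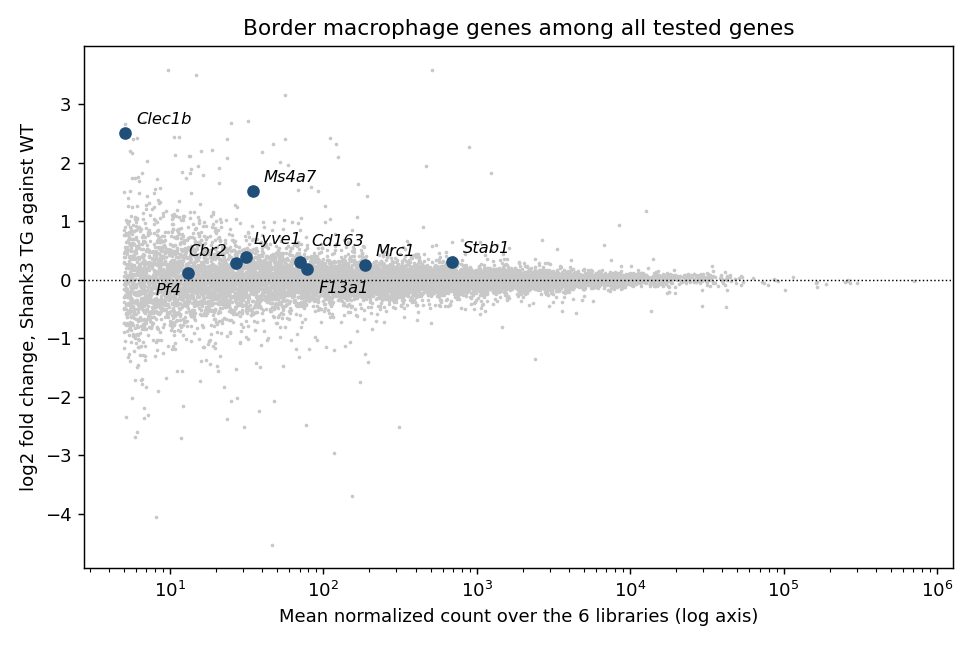
Log2 difference of *Shank3* TG from WT (y axis) against the mean normalized count over the 6 libraries (x axis, log scale) of the genes tested, in grey, with the 9 border macrophage genes marked. The members lie above 0, and *Clec1b* is at the low end of abundance, close to the minimum mean of 5 normalized counts.

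A wider set of genes used as markers of border macrophages had differences in both directions. Of 24 such genes, 22 were measured and 19 tested, 10 with a higher and 9 with a lower mean in *Shank3* TG, with a median log2 difference of 0.03 and an unadjusted limma p under 0.05 for 1 (*Cd209f*), or for 3 with the block (*Cd209f*, *Clec4n* and *Colec12*), against 0.933% and 2.33% of all genes tested for higher values. Among the most abundant of them were *Maf*, a transcription factor of macrophages and other cells, *Colec12*, a scavenger lectin, and *Slc40a1*, the iron exporter ferroportin, at log2 differences of 0.03, 0.24 and -0.03. The lectin gene *Cd209f* was 7.27, 12.9 and 18.5 normalized counts in TG-1 to TG-3 and 4.21, 6.36 and 2.73 in WT-1 to WT-3, without overlap (log2 difference 1.32). *Clec4n*, which encodes Dectin-2, was 12.7, 7.76 and 5.72 against 2.61, 4.95 and 0 (log2 difference 1.75). The unadjusted limma p-values were 0.0293 for *Cd209f* and 0.0506 for *Clec4n*. Their WT means were 4.43 for *Cd209f* and 2.52 for *Clec4n*, under the filter of 5, so that both, like *Clec1b*, entered the test through the *Shank3* TG libraries and their p-values describe genes that had to differ. Other lectin genes of the list overlapped, among them *Clec10a* at 28.8, 14.5 and 11.3 normalized counts in TG-1 to TG-3 and 7.74, 16.8 and 7.31 in WT-1 to WT-3. *Ms4a6b*, a relative of *Ms4a7*, had a log2 difference of -0.74 and *Lilra5*, an activating immune receptor, one of -0.80, neither past an unadjusted p of 0.05 (limma, 0.183 and 0.179).

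Genes of ligands, growth factors and partners of the 9 proteins gave no unadjusted p under 0.05. Of 16 listed, 12 were tested, 8 higher and 4 lower, with a median log2 difference of 0.11. *Pdpn*, the ligand of CLEC-2, had a log2 difference of 0.17 and *Hmox1*, which breaks down the haem that CD163 brings in, one of 0.25, both higher at all 3 numbers. *Csf1* and *Il34*, the growth factors of brain macrophages, and their receptor *Csf1r* were at -0.14, 0.06 and -0.00. *Has3*, a hyaluronan synthase, was 86.7, 93.4 and 96.2 normalized counts in TG-1 to TG-3 and 69.3, 74.2 and 83.0 in WT-1 to WT-3, without overlap, at a log2 difference of 0.29 and an unadjusted limma p of 0.0959. The other hyaluronan synthase genes overlapped, with log2 differences of -0.42 for *Has1* and 0.45 for *Has2*.

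The lists of microglia genes and of genes that macrophages share had medians close to 0. The 12 microglia genes had a median log2 difference of 0.03, with 8 higher and 4 lower, and their sum was 9507, 9622 and 8144 normalized counts in TG-1 to TG-3 and 10437, 8771 and 8452 in WT-1 to WT-3. *Cx3cr1*, *P2ry12* and *Tmem119*, genes that define microglia, had log2 differences of -0.08, 0.04 and 0.03. The 18 genes that macrophages and microglia share, among them *Ctss*, *Laptm5* and the complement genes *C1qb* and *C1qc*, had a median of -0.02 (range -0.29 to 0.23), with 8 higher and 10 lower. None of these 30 genes had an unadjusted p under 0.05 without the block. The difference between these lists and the 9 genes was not itself tested.

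Leptomeningeal genes and some class II genes also had higher means in *Shank3* TG. All 16 leptomeningeal fibroblast genes, which mark the cells that build the inner meninges, were higher in *Shank3* TG, with a median log2 difference of 0.34 (range 0.09 to 0.77), and 8 had an unadjusted limma p under 0.05, or 11 with the block, against 0.933% and 2.33% of all genes tested for higher values. Their sum was 7106, 7592 and 6688 normalized counts in TG-1 to TG-3 and 6239, 5565 and 5615 in WT-1 to WT-3, a ratio of 1.23. *Slc47a1*, an organic cation exporter of the meninges, had a log2 difference of 0.77, *Crabp2*, a retinoic acid binding protein, one of 0.58, and *Slc13a4*, a sulfate carrier, one of 0.43, each without overlap. *Igf2*, the most abundant of the list, had a log2 difference of 0.24. Of the 8 genes of dendritic cells and class II antigen presentation, 5 were higher and 3 lower, and 4 of the higher genes had an unadjusted limma p under 0.05, against the same 0.933%. The sum of the 8 genes was 627, 646 and 692 against 577, 603 and 504. *H2-Aa*, a class II chain, was 61.0, 69.6 and 82.4 normalized counts in TG-1 to TG-3 and 37.6, 32.7 and 45.6 in WT-1 to WT-3, and *Cd74*, the class II invariant chain, was 116, 167 and 229 against 101, 101 and 105. The lower genes were the dendritic cell receptor gene *Flt3*, *Ciita*, the regulator of class II genes, and *Xcr1*, at -0.29, -0.21 and -0.12. *Itgax*, also of this list, was 10.2, 14.0 and 12.3 normalized counts in TG-1 to TG-3 and 5.62, 7.74 and 6.09 in WT-1 to WT-3, without overlap. Its log2 difference was 0.82, with an unadjusted limma p of 0.056. The part of the leptomeningeal and class II genes in the values of the 9 genes was not tested.

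Of the remaining lists of other cell types, those of the choroid plexus and of red blood cells had the highest medians. The 10 endothelial genes had a median log2 difference of 0.02, and of the 3 lymphatic endothelial genes tested 1 was higher and 2 were lower, at a median of -0.21, beside the 0.39 of *Lyve1*. Among the lymphatic genes *Prox1* was lower at all 3 numbers, with an unadjusted limma p of 0.18 without and 0.0488 with the block. Of the 5 platelet genes tested, 4 were higher, with a median of 0.07 and no unadjusted limma p under 0.05. *Gp9*, a platelet adhesion receptor subunit, was 7.54, 9.72 and 10.6 normalized counts in TG-1 to TG-3 and 6.36, 3.06 and 6.12 in WT-1 to WT-3. *Treml1* and *Ppbp* of the same list averaged under 5 and were not tested. *Treml1* was 2.80, 1.75 and 4.37 against 8.28, 4.96 and 4.92, lower in *Shank3* TG without overlap. *Ppbp* had means of 3.91 in *Shank3* TG and 3.63 in WT. The 5 red blood cell genes were all higher, at a median of 0.17, and *Alas2*, the first enzyme of haem synthesis in red cells, had an unadjusted limma p of 0.0354 (log2 difference 0.36), the 1 gene of that list under 0.05, or 1 of 3 with the block, against the same 0.933% and 2.33% of all genes tested. Of the 6 choroid plexus genes tested, 4 were higher and 2 lower, at a median of 0.49. *Ttr*, the thyroxine carrier transthyretin, was 127, 22.9 and 445 normalized counts in TG-1 to TG-3 and 14.3, 12.6 and 41.7 in WT-1 to WT-3, with TG-2 below WT-3 (log2 difference 2.42). It was the 1 gene of that list with an unadjusted limma p under 0.05, at 0.0382 without and 0.000518 with the block. The shares of all genes tested are the same 0.933% and 2.33%. The others were *Clic6* at 0.52, *Kcnj13*, a potassium channel whose groups did not overlap, at 0.50, *Kcne2*, a potassium channel subunit, at 0.48, *Kl*, which encodes klotho, at -0.07 and *Folr1*, a folate receptor, at -0.12. The summed level of the choroid plexus list had a ratio of the means of 2.31 with *Ttr* and of 1.07 without it, at 114, 109 and 150.4 against 101, 109 and 140.2. The 6 monocyte and neutrophil genes tested had a median of -0.00, with 3 higher and 3 lower, and of the 4 lymphocyte genes tested 2 were higher and 2 lower, at a median of 0.13. The part of these cells in the values of the 9 genes was not tested.

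**Figure D4:**
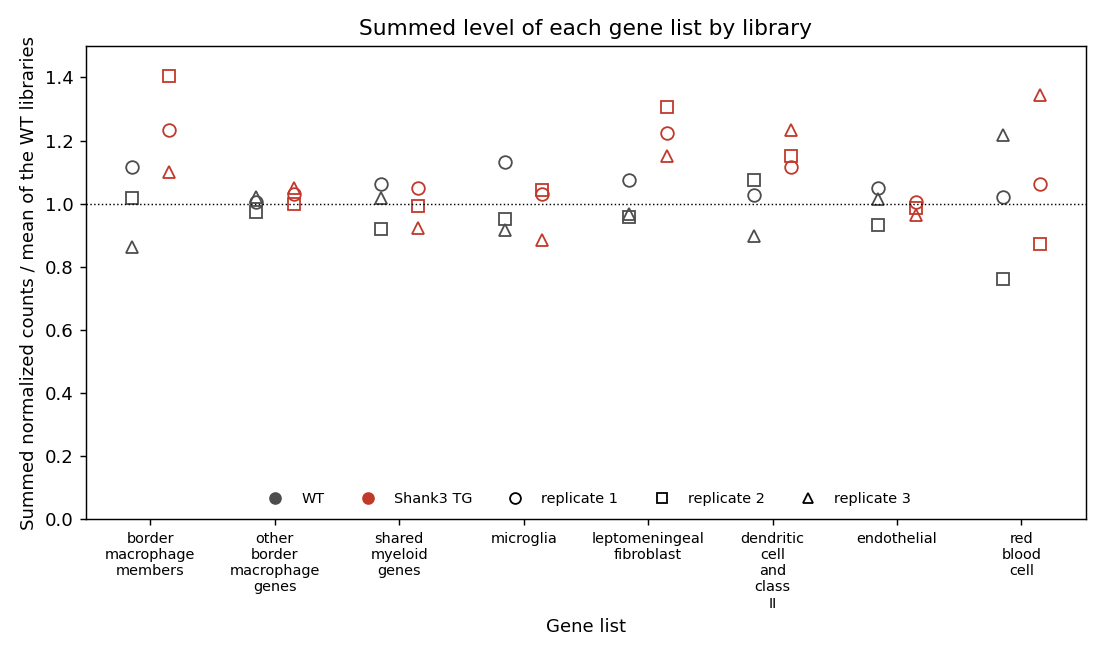
Summed normalized counts of each gene list in each library, divided by the mean of the 3 WT libraries (y axis, linear, from 0); each point is a library. The mean sums of the 9 border macrophage genes and of the leptomeningeal genes are higher in *Shank3* TG, with ratios of 1.25 and 1.23 and with TG-3 of the first below WT-1. The other border macrophage genes have a ratio of 1.03, and the microglia and shared myeloid genes have ratios of 0.986 and 0.988. The dendritic cell and class II, endothelial and red blood cell lists have ratios of 1.17, 0.985 and 1.09.

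The mean centred log2 pattern of the 9 genes over the 6 libraries was set against that of every other tested gene with at least 0.5 times its spread (7350 genes). The measure was the root mean square difference over the libraries. *Clec1b* and *Ms4a7* set much of that pattern, so that likeness to it is not likeness to each member. The most alike were *2610001J05Rik* (0.0495), *Gdf10* (0.0891), *Gm14735* (0.109), *Ndnf* (0.111) and *Crabp2* (0.117), the last of which is also in the leptomeningeal list. *2610001J05Rik* was 618, 631 and 575 normalized counts in TG-1 to TG-3 and 379, 453 and 394 in WT-1 to WT-3. *Gdf10*, which encodes a growth factor of the TGF-β family, was 139, 150 and 134 against 97.5, 98.0 and 100.04. *Ndnf*, which encodes a secreted neurotrophic factor, was 284, 273 and 277 against 194, 223 and 172. These points share libraries and depth, and with 6 libraries in 2 groups any gene that differs between the genotypes by a like amount will be close.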

How the data were processed

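RNA sequencing of the mPFC of male *Shank3* TG and WT mice, 6 libraries of 2 pooled mice each, was analysed from the deposited values. The authors made stranded mRNA libraries, used Salmon 0.9.1 with GC bias correction against GRCm38, summed transcripts by gene through tximport in R 3.6.0 and normalized them in DESeq2 1.19.11. The deposited signal is the normalized counts of 18254 genes. Whole reads could not be recovered (at most 41.1% of values up to 20 lay within 0.05 steps of a multiple of 1 step), so no counting interval was given. Precision comes from the spread over 3 pools per genotype. Whether pools came from separate litters is not given in the sources used here, so p-values measure the spread between these pools, and exact permutation of 3 against 3 cannot go below a two-sided p of 0.1.

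Names and positions came from GENCODE M21 (18231 genes found). The fit used limma 3.58.1 in R 4.3.3 on log2(normalized count + 1) for genes with a mean of at least 5, with genotype alone, a mean-variance trend, two-sided tests and Benjamini-Hochberg adjustment at 0.05 over all 16714 genes. It was tested on simulated data. The floor for bounds was 3 normalized counts. The 9 genes and the lists were chosen with earlier results of these data known. Named genes are the 9 members, *Shank3*, at most 4 of the most abundant genes and at most 4 with the smallest p of each list, and the 5 genes most alike in pattern among genes with at least 0.5 times the spread of the members' pattern. *Clec9a*, *Folr1*, *Ms4a6b*, *Lilra5*, *Pdpn*, *Csf1*, *Tmem119*, *Itgax*, *Xcr1*, *Ppbp* and *Treml1* were named beside these, after their values had been seen.

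Whether libraries of the same number were handled as pairs is not established, though the study's methods speak of pairs of RNA samples. The deviations from the genotype mean correlated across genes at 0.30, 0.33 and 0.62 in TG and WT libraries of the same number. Between numbers 1 and 2 these correlations were 0.23 and 0.27, and between number 3 and the others they were -0.39 to -0.44. The libraries numbered 3 thus stand apart, while numbers 1 and 2 are hardly told apart. The block and the counts by number rest on this numbering. Alternatives tried were a pseudocount of 0.1 or 5, the filter dropped or raised to 50, upper quartile scaling, quantile normalization, eBayes without a trend or robust, the replicate block, an empirical null and each library left out. A fit without both libraries numbered 3 and the members other than *Ms4a7* and *Clec1b* were added after seeing the data. The study's own fold changes and its other tissues were not used here.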

Additional observations from a re-analysis of the deposited data

How the results depend on the processing

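The median log2 difference of the 9 genes (0.30) stayed between 0.22 and 0.39 under every alternative run. The number of genes called (0, with 336 at an unadjusted p under 0.05) was 1 with upper quartile scaling, the robust eBayes, the replicate block or without both libraries numbered 3, each time *Shank3*, 26 with the empirical null and 0 to 1 with each library left out (1 without WT-3). The number of members with an unadjusted p under 0.05 (2) was 4 with the replicate block, 3 with the empirical null, 1 with eBayes without a trend, and 0 with the filter raised to 50 (4 members tested), without both libraries numbered 3 (8 tested) or without *Ms4a7* and *Clec1b* (7 left). With each library left out it was 0 to 2, and 0 without TG-1 and without TG-3 and 1 without TG-2, where *Clec1b* falls under the filter and is not tested. Without WT-1 the 2 members were *Clec1b* and *Stab1*, not *Ms4a7*. The block changed no call of a member at an adjusted p of 0.05. *Pf4* turned to -0.10 without WT-2, and was 0.41 without WT-3 and 0.53 without both libraries numbered 3, and the cause was not tested. Of the other 143 values of single members under the alternatives, 142 kept their direction and side of the adjusted threshold, and *Clec1b* passed it with the empirical null. The depth of single genes in reads is unknown, which limits the members of few normalized counts, *Clec1b* and *Pf4*, the most.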
